A study of Mus musculus with 19 samples.

Results

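Left ventricular myocardium taken at day 28 was compared with baseline myocardium, using 9 of the 19 arrays of the series: 4 labelled day 28 and 5 labelled control. The arrays were chosen by these labels alone. All animals were male MerCreMer mice, in which Cre recombinase is fused to a mutated estrogen receptor and driven by the cardiac-specific myosin heavy chain promoter. The line had been back-crossed to C57Bl6/J, and the mice were 12 to 20 weeks old. The day 28 mice received 1.0 mg tamoxifen (40 mg/kg/day) for 5 days, after which 23 days passed on normal diet, and the controls were sampled at baseline. The transgene was carried by both groups, and neither a vehicle group nor a tamoxifen group without Cre is among the 19 samples, so tamoxifen, Cre activation and elapsed time cannot be told apart. The other 10 arrays came from day 2 (4 arrays), day 3 (3 arrays) and day 10 (3 arrays, 5 days of tamoxifen and 5 days of normal diet), and the series design places peak dysfunction at day 10 and recovery by day 28. Values below are log2 background-corrected intensities of 1 probe per gene, and a probe was called when limma's adjusted p fell under 0.05.

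Tamoxifen activates the Cre fusion protein, which otherwise stays outside the nucleus, and nuclear Cre can damage the DNA of cardiac myocytes. A failing ventricle typically re-expresses fetal genes such as natriuretic peptides, lays down matrix and lowers the genes of fatty acid oxidation. Immediate early genes, such as Fos and Egr1, are a separate class. They encode transcription factors and feedback regulators whose transcripts appear within minutes of a stimulus without new protein synthesis, and they respond to growth factors, cytokines and stretch. NF-kB target genes, among them chemokines and the inhibitor Nfkbia, are induced on a similar time scale by inflammatory signals.

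Of 19272 probes tested, 347 were called (1.80%) between day 28 and control, 214 higher (1.11%) and 133 lower (0.690%) at day 28. Only 69 of these, 0.358% of the probes tested, differed at least 2-fold, and 62 of the 69 were higher. Counted as 1 probe per gene over 12938 genes, 270 were called (2.09%), 172 higher (1.33%) and 98 lower (0.757%). The higher genes were led by chemokines and immediate early genes, with changes of up to 32.9-fold, whereas the largest fall of any called probe was 0.392-fold. Nppa, Tnnt1, Timp1, Col1a1 and Ces1d, genes of the fetal, matrix and metabolic programmes that were called at day 10, were not called at day 28. None of 16 tested cardiomyocyte markers was called. Their summed intensity ran from 476119 to 527357 at day 28 against 485907 to 554086 in the controls. Markers such as Myl2 and Myl3 lay near the top of the intensity scale in both groups, and a lack of difference does not test the tissue label. The atrial marker Myl7 varied widely within both groups, from 6.99 to 11.40 in the controls and from 6.71 to 10.27 at day 28.

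The 5 controls were not alike, which bears on every comparison below. Over all tested probes the root mean square distance to the day 28 mean was 0.37, 0.35 and 0.36 for controls 1, 2 and 3, but 0.27 for control 4 and 0.28 for control 5. Controls 4 and 5 were the nearest pair of controls to the day 28 mean for 22.2% of all probes, for 48.1% of the probes called higher and for 67.7% of those called lower. With controls 4 and 5 left out, 1874 probes were called (926 higher, 948 lower). With controls 1 to 3 left out, 39 were called, 37 higher and 2 lower. That fit sets only controls 4 and 5 against day 28 and is less precise, so a call can be lost there without a smaller change. Median changes of the probes called higher were 0.78 with all controls, 0.89 without controls 4 and 5 and 0.59 without controls 1 to 3. The probes called lower had medians of -0.65, -0.80 and -0.38 in the same order, so they shrank more when only controls 4 and 5 remained. The labels give no litter, day or other batch for any control, and what set controls 4 and 5 apart was not tested.

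**Figure D1:**
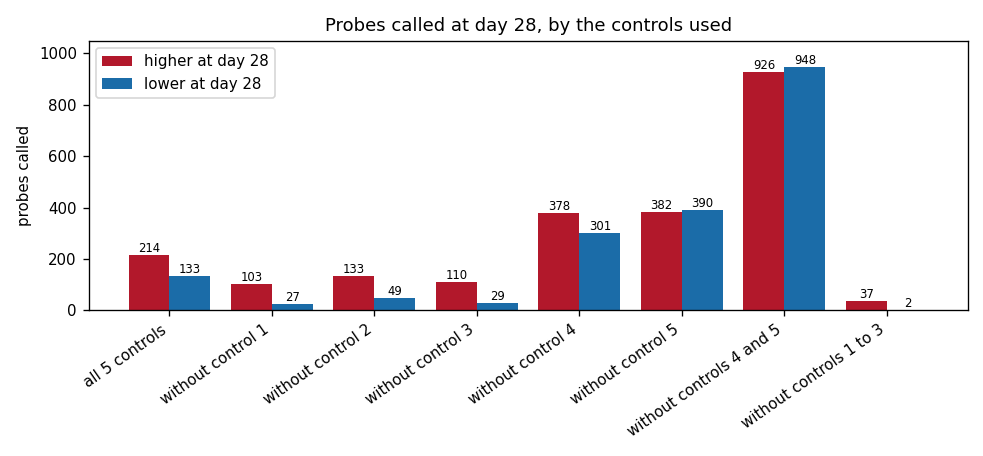
Bars give the number of probes called between day 28 and control (adjusted p under 0.05), higher in red and lower in blue, for all 5 controls and with controls left out. The counts range from 926 higher and 948 lower without controls 4 and 5 to 37 higher and 2 lower without controls 1 to 3.

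Immediate early genes were the list with the highest share of calls. Of 24 tested genes, 16 were higher at day 28 and none was lower (against 1.33% and 0.757% of all genes), and the median change over the 24 was 1.04, beside -0.00 over all genes tested. Egr2, Fos, Fosb, Junb and Egr1 rose most, by 3.45 to 3.70 on the log2 scale. The array values of the list were high in all 4 day 28 samples, and control 4 was the highest of the controls, with a list median 0.24 above the control mean against 0.71 to 1.38 in the day 28 arrays.

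The promoters of a few of these genes are shown because the genes moved together. The 300 bases run from 250 before to 50 after the annotated start (RefSeq, GRCm38.p6), and capitals mark TGACG, the half-site of the cyclic AMP response element, found on the printed strand. Fos lies at chr12:85473640-85473939 on the plus strand, Fosb at chr7:19309996-19310295 and Junb at chr8:84978699-84978998, both on the minus strand.
Fos: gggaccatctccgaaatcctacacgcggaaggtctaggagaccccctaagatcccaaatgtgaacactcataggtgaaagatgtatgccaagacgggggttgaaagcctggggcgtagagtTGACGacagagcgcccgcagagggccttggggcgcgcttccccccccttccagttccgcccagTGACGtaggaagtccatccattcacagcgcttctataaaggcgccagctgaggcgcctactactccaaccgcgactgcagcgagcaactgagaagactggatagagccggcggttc
Fosb: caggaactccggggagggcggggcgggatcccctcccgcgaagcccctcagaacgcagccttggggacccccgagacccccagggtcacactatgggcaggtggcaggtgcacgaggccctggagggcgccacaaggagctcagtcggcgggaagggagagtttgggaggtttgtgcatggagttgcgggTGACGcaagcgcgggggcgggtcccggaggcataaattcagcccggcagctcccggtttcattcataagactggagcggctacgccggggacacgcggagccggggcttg
Junb: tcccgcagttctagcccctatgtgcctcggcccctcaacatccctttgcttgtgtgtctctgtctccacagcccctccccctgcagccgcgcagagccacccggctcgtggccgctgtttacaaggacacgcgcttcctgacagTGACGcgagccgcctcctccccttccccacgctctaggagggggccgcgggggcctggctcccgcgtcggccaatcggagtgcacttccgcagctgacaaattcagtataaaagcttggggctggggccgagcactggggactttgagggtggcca
Searched on both strands, TGACG was present in at least 1 such window of 12 of the 15 called immediate early genes that had a promoter sequence (80%), and in 23% of 27025 mouse genes. The CArG box, bound by serum response factor, was present in the windows of 2 of the 15 (13.3%), Egr2 and Zfp36, and in 1.81% of all genes. Egr1 was the called member without a sequence, and bases further than 250 before the start were not searched. A gene without a match may therefore hold one elsewhere. The list was compiled by gene class, and its uncalled members were not counted. Neither share therefore says anything about day 28, and a match describes the letters alone.

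Fos, the partner of Jun proteins in the AP-1 transcription factor, read 8.03, 8.67, 8.62, 11.45 and 8.41 in controls 1 to 5 and 12.52, 12.77, 12.86 and 12.23 in day 28 replicates 1 to 4. All 4 day 28 arrays lay above every control, and control 4 alone among the controls approached them. The change was 11.8-fold (log2 3.56, SE 0.41, limma adjusted p = 1.51e-05). Fosb, another AP-1 component, read 6.90, 6.91, 7.35, 8.77 and 6.73 in the controls and 10.03, 10.38, 11.30 and 11.55 at day 28. The groups did not overlap, and the rise was 11.2-fold (SE 0.33 on the log2 scale, adjusted p = 1.26e-06). Junb, a Jun family member, read 8.35, 8.23, 8.30, 10.65 and 8.34 in the controls and 11.90, 12.24, 12.58 and 12.18 at day 28. Its 10.9-fold rise (adjusted p = 1.26e-06) again left control 4 as the nearest control.

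The zinc finger factors showed the same order of arrays. Egr1 read 10.14, 10.69, 10.18, 13.59 and 10.69 in the controls and 14.39, 14.59, 14.64 and 14.39 at day 28, a 10.9-fold rise (adjusted p = 2.46e-05). Egr2 read 6.96, 7.15, 6.82, 9.96 and 6.89 in the controls and 10.97, 11.90, 11.37 and 10.79 at day 28. It rose by 3.70 on the log2 scale (SE 0.41, adjusted p = 8e-06), and no day 28 value reached down to control 4. Egr3, of the same family, was not called (log2 change 0.08, adjusted p = 0.80).

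Feedback regulators of these signals were also higher, among them Errfi1, which is not on the immediate early list. Zfp36, an RNA-binding protein that speeds the decay of cytokine transcripts, read 9.83, 10.34, 10.02, 10.94 and 9.37 in the controls and 12.23, 12.51, 12.81 and 12.25 at day 28 (5.10-fold, adjusted p = 4.29e-06). Dusp1, a phosphatase of MAP kinases, read 12.18, 12.32, 12.13, 12.89 and 11.95 in the controls and 13.63, 13.56, 13.92 and 14.24 at day 28 (2.92-fold, adjusted p = 0.000367). Errfi1, an inhibitor of the EGF receptor, read 10.89, 11.03, 11.15, 12.21 and 9.39 in the controls and 12.95, 13.51, 13.91 and 14.07 at day 28 (6.40-fold, adjusted p = 4.92e-05). In all 3 genes the day 28 arrays lay above every control, and control 5 gave the lowest control value. Ccn1 of the list is described with the matrix genes, and the smaller called rises of the list were Atf3 (1.66), Nr4a2 (1.56), Csrnp1 (1.37), Ier3 (1.21), Maff (0.87), Jun (0.85), Klf4 (0.79) and Btg2 (0.73), all log2 changes. The members not called were Ier5, Myc, Egr3, Klf6, Nr4a3, Fosl1, Jund and Ier2, with log2 changes between -0.04 and 0.40.

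Leaving out controls 1 to 3 kept 10 of the 16 immediate early calls. Against controls 4 and 5 alone, Fos was 6.34-fold higher (adjusted p = 0.0104), Fosb 8.35-fold (0.00263), Junb 6.63-fold (0.00263), Egr1 5.14-fold (0.0136) and Egr2 7.14-fold (0.00758). Dusp1 (2.67-fold, adjusted p = 0.0727) and Btg2 (1.62-fold, 0.191) were among the 6 that lost their call there. The log2 changes of Dusp1 and Btg2 were 1.54 and 0.73 with all controls, and 1.42 and 0.70 in that fit. Without controls 4 and 5, 15 members were called. Leaving out control 4 alone moved the changes of Fos, Egr1 and Egr2 by over 1.5 times, to 17.9-fold, 16.9-fold and 19.7-fold.

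**Figure D2:**
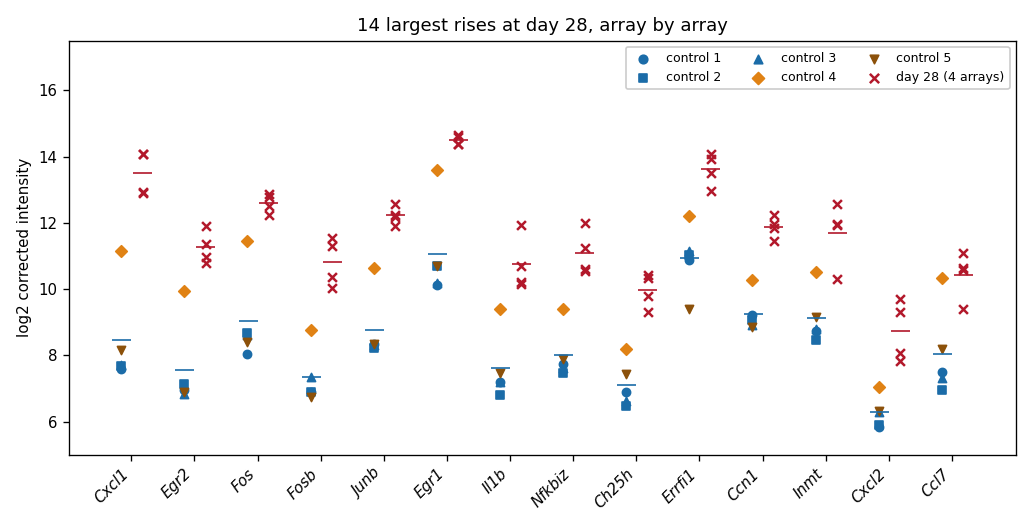
Log2 corrected intensity (vertical axis) of the 14 genes with the largest called rises, one column per gene; blue, orange and brown symbols are the 5 controls, red crosses the 4 day 28 arrays, and short lines the group means. Control 4 (orange) is the highest control in all 14 genes, and in 12 of them every day 28 array lies above it, Inmt and Ccl7 being the exceptions.

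Cytokines, chemokines and NF-kB targets formed the second group. Of 33 tested genes, 15 were higher and none lower at day 28 (1.33% and 0.757% of all genes), with a median log2 change of 0.94. They comprised ligands, adhesion molecules and inhibitors of NF-kB, and the largest was Cxcl1, which attracts neutrophils.

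The promoters of 3 members are printed because they hold the NF-kB motif, which capitals mark. The windows and build are those given above, with Cxcl1 at chr5:90890995-90891294 and Cxcl2 at chr5:90903649-90903948 on the plus strand and Nfkbia at chr12:55492598-55492897 on the minus strand.
Cxcl1: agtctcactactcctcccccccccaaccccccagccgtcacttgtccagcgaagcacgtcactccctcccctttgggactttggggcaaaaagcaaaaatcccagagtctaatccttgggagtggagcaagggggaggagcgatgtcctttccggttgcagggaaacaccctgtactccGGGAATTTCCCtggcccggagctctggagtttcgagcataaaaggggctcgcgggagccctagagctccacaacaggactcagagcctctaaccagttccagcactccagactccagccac
Cxcl2: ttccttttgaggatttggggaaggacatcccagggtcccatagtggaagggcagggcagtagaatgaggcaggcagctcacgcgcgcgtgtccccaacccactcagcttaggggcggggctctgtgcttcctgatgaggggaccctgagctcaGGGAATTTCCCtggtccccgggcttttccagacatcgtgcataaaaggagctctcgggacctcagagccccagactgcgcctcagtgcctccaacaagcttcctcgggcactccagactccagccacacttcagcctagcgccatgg
Nfkbia: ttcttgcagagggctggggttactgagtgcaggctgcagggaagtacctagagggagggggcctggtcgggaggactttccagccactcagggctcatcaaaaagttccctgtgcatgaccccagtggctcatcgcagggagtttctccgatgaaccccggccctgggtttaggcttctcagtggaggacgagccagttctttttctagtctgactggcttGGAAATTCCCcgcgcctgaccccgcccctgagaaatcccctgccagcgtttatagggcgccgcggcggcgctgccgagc
In Cxcl1 and in Cxcl2 the capitals cover 2 matches that overlap and differ in start by a single base, read on opposite strands. The motif, searched on both strands, was present in 4 of the 9 called members that had a promoter sequence (44.4%) and in 5.14% of all mouse genes, and also in 4 of the 15 called immediate early genes with a sequence (26.7%). The list was compiled to include NF-kB targets, and its uncalled members were not counted. The share therefore says nothing about day 28, and a match describes these letters only.

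Cxcl1 read 7.58, 7.67, 7.70, 11.14 and 8.17 in the controls and 12.90, 12.93, 14.06 and 14.07 in the day 28 arrays. Control 4 stood between the other controls and day 28, and the groups did not overlap. The difference of 32.9-fold (log2 5.04, SE 0.52, adjusted p = 3.49e-06) was the largest of all called genes. It was 52.5-fold without control 4 and 14.3-fold against controls 4 and 5 alone (adjusted p = 0.00473). Cxcl2, a closely related ligand, read 5.85, 5.89, 6.30, 7.05 and 6.32 in the controls and 8.08, 7.82, 9.71 and 9.29 at day 28 (5.44-fold, adjusted p = 8.66e-05). Ccl7, a monocyte attractant, read 7.48, 6.95, 7.33, 10.32 and 8.19 in the controls and 10.64, 9.40, 11.10 and 10.58 at day 28 (5.19-fold, adjusted p = 0.00647). Here control 4 lay above day 28 replicate 2, and against controls 4 and 5 alone Ccl7 was 2.26-fold higher with an adjusted p of 0.618.

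Il1b, the secreted cytokine interleukin 1 beta, read 7.18, 6.80, 7.19, 9.40 and 7.48 in the controls and 10.20, 10.16, 11.92 and 10.71 at day 28 (8.81-fold, adjusted p = 0.000343). Tnf read 6.18, 6.32, 6.38, 6.59 and 6.77 in the controls and 7.94, 7.83, 9.30 and 7.72 at day 28 (log2 change 1.75, adjusted p = 0.000575). Both sets of day 28 values lay above all controls, with replicate 3 highest. Ccl4 (2.04), Ccl2 (1.55), Ccl5 (1.00) and Ccl3 (0.94), ligands that recruit leukocytes, were also called higher. Against controls 4 and 5 alone the adjusted p of Il1b was 0.147.

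Among the regulators, Nfkbiz, a nuclear cofactor of NF-kB, read 7.73, 7.47, 7.61, 9.41 and 7.89 in the controls and 10.59, 10.56, 12.01 and 11.24 at day 28 (8.43-fold, adjusted p = 5.21e-06). Nfkbia, the cytoplasmic inhibitor that NF-kB itself induces, read 10.18, 10.07, 10.12, 10.14 and 9.79 in the controls and 11.00, 11.02, 11.81 and 11.51 at day 28 (log2 change 1.27, adjusted p = 0.0021). For Nfkbia the controls were close together and control 4 did not stand out, in contrast to Nfkbiz. Tnfaip3, a ubiquitin-editing enzyme that limits NF-kB signalling, read 6.84, 7.24, 7.16, 7.01 and 7.26 in the controls and 8.05, 8.17, 10.00 and 9.14 at day 28 (1.74, adjusted p = 0.00738). The adhesion molecule Vcam1 read 9.81, 9.34, 9.72, 10.19 and 9.67 in the controls and 11.07, 11.25, 12.18 and 11.29 at day 28 (3.25-fold, adjusted p = 0.000178). Icam1 (1.38) and Socs3 (1.19), an inhibitor of cytokine receptor signalling, completed the 15. Against controls 4 and 5 alone 5 of the 15 calls remained, those of Cxcl1, Cxcl2, Nfkbiz, Vcam1 and Ccl5.

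The 18 uncalled members of the list included several that were high at day 10. Lcn2, an iron-siderophore-binding protein of neutrophils and stressed tissue, read 8.01, 7.69, 7.55, 8.09 and 7.36 in the controls and 7.29, 7.24, 7.38 and 7.29 at day 28. All 4 day 28 arrays lay below all controls, an order found for 2.99% of all probes, and the change was not called (log2 -0.44, adjusted p = 0.59). Its change at day 10 was 3.93, and day 28 minus day 10 was -4.37. Ccl9 and Ccl6 changed by 0.15 and -0.03 at day 28 (adjusted p = 0.89 and 0.97) and by 3.39 and 3.04 at day 10.

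Genes of inflammatory cells were measured beside these rises. Of 24 tested macrophage and monocyte markers, 2 were higher at day 28, Cd14 and Cd83, beside 1.33% higher and 0.757% lower of all genes, and the median change was 0.27. Cd14, a receptor for bacterial lipopolysaccharide, read 7.98, 7.70, 7.51, 9.55 and 8.44 in the controls and 9.71, 9.67, 11.02 and 10.70 at day 28 (4.11-fold, adjusted p = 0.0021). Cd83, found on activated dendritic and other immune cells, read 7.89, 7.63, 7.96, 9.06 and 8.31 in the controls and 9.82, 9.58, 10.88 and 10.16 at day 28 (3.83-fold, adjusted p = 0.00174). Both lost their call against controls 4 and 5 alone (adjusted p = 0.401 and 0.307). The summed intensity of the marker list ran from 19610 to 43910 in the controls, from 33231 to 40183 at day 28 and from 115700 to 161037 at day 10. The list medians relative to the control mean were -0.22, -0.41, -0.41, 0.47 and 0.46 in controls 1 to 5 and 0.22, 0.16, 0.32 and 0.39 at day 28. Controls 4 and 5 were thus above all 4 day 28 arrays on this list, and the list median turned from 0.65 without these controls (10 called) to -0.19 without controls 1 to 3 (none called). None of 17 neutrophil markers was called, with a median of 0.16. S100a8 and S100a9, abundant neutrophil proteins, had log2 changes of 1.44 and 1.37 (adjusted p = 0.21 and 0.20). None of 9 mast cell markers and none of 13 B cell and plasma cell markers was called. Of 20 endothelial markers 1 was higher, Egfl7, a secreted vascular protein (1.47-fold, adjusted p = 0.0342, 1 of 3 probes). Egfl7 lost its call against controls 4 and 5 alone (adjusted p = 0.699). The list median was 0.06, with 11 of the 20 genes above 0. The summed intensity of that list, in which bright probes weigh most, ran from 34672 to 37972 in the controls and from 38883 to 41973 at day 28. In ventricular pieces a change in the number of a cell type and a change in its RNA per cell cannot be told apart, and the part of these cells in the chemokine values was not tested.

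**Figure D3:**
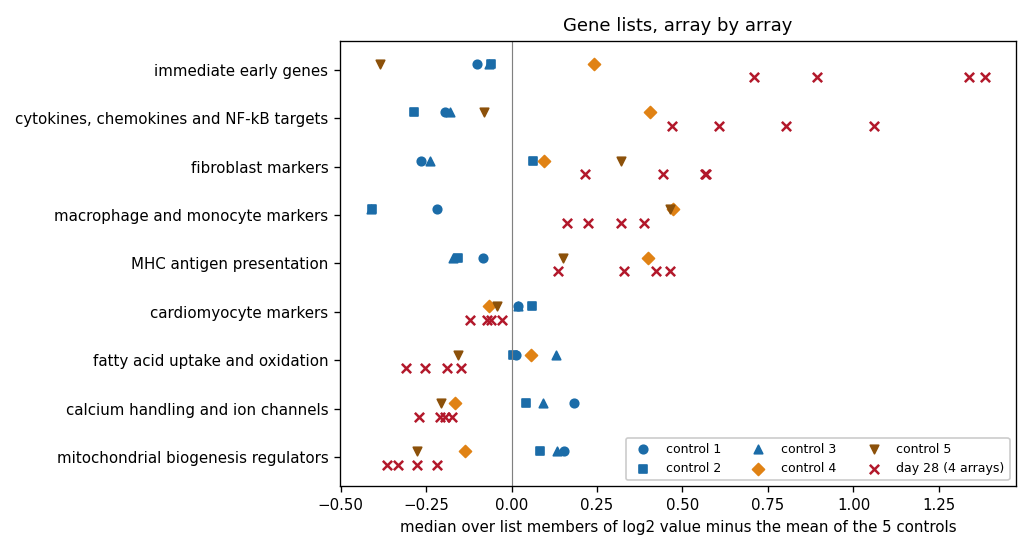
Median over the members of 9 gene lists of the log2 value minus the mean of the 5 controls, for each array; symbols as in the plot of the largest rises. The 4 day 28 arrays (red crosses) lie above all controls for immediate early genes and for cytokines, whereas on the macrophage list controls 4 and 5 lie above them and on the calcium handling and mitochondrial lists these controls lie among or beside them.

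Fibroblast and matricellular genes held more calls than the collagens. Of 18 fibroblast markers 4 were higher and none lower, with a median change of 0.46, and 7 of 27 matricellular, elastic and provisional matrix genes were higher with a median of 0.20, beside 1.33% higher and 0.757% lower of all genes. Of 24 collagens and collagen-processing genes none was higher and 1 was lower, with a median of -0.06. Leaving out control 1, control 3 or day 28 replicate 2, 3 or 4 left 1 of the fibroblast and 4 of the matricellular calls in each case, and leaving out controls 1 to 3 left none and 3. The summed intensity of the fibroblast markers ran from 36566 to 48646 in the controls and from 50580 to 68359 at day 28. Dcn, with means of 14.61 and 15.09, was by far the brightest member and dominates this sum. Dcn and Lum are on both the fibroblast and the matricellular list.

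Ccn1, a secreted matricellular protein and an immediate early gene, read 9.21, 9.06, 8.90, 10.27 and 8.85 in the controls and 11.84, 12.23, 11.96 and 11.46 at day 28 (6.13-fold, adjusted p = 1.26e-06, 3 of 3 probes called). Its relative Ccn2 read 12.50, 12.54, 12.20, 11.61 and 11.60 in the controls and 12.43, 13.85, 13.51 and 13.46 at day 28 (2.33-fold, adjusted p = 0.00727). For Ccn2, controls 4 and 5 were the lowest controls, and day 28 replicate 1 lay within the control range. Thbs1, thrombospondin 1, read 6.53, 6.83, 6.65, 6.87 and 6.18 in the controls and 7.76, 8.46, 8.62 and 8.09 at day 28 (3.06-fold, adjusted p = 3.34e-05). These 3 genes kept their calls against controls 4 and 5 alone (adjusted p = 0.00263, 0.00574 and 0.00574).

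The small proteoglycans moved less. Lum, lumican, read 10.48, 10.87, 10.44, 11.46 and 11.48 in the controls and 11.67, 12.31, 12.24 and 12.09 at day 28 (2.19-fold, adjusted p = 0.00211). Dcn, decorin, read 14.52, 14.66, 14.43, 14.79 and 14.64 in the controls and 14.87, 15.18, 15.16 and 15.14 at day 28 (1.39-fold, adjusted p = 0.0437). In both, all day 28 arrays lay above all controls, and day 28 replicate 1 was the lowest. Mmp2, a gelatinase, rose 1.74-fold (adjusted p = 0.0334) and Serpinf1, an anti-angiogenic secreted serpin, 1.77-fold (adjusted p = 0.0165). The calls of these 4 genes were lost against controls 4 and 5 alone (adjusted p from 0.374 to 0.740), where none of the 18 fibroblast markers was called and their median change was 0.20.

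No fibrillar collagen chain shown here was called, although their values differed. Col1a1 read 8.82, 9.54, 9.14, 9.08 and 9.51 in the controls and 9.14, 9.36, 8.91 and 8.42 at day 28, a log2 difference of -0.26 (95% interval -0.72 to 0.20, adjusted p = 0.63). Col3a1 differed by 0.02 (-0.47 to 0.51, adjusted p = 0.98). Col1a2, the partner chain of Col1a1, read 7.23, 7.66, 7.62, 7.31 and 7.72 in the controls and 7.98, 8.06, 7.97 and 8.05 at day 28. All 4 day 28 arrays lay above all controls, and the difference of 0.51 (0.22 to 0.80) missed the threshold (adjusted p = 0.0638). The called member of the collagen list, P4ha2, a subunit of the prolyl hydroxylase that modifies collagen, was 0.659-fold (adjusted p = 0.0353). No probe for Postn passed the filter on low values.

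Inmt, an N-methyltransferase of indoles and other amines, changed in opposite directions at day 10 and day 28. It read 8.72, 8.46, 8.79, 10.53 and 9.14 in the controls and 10.30, 11.97, 12.57 and 11.94 at day 28. Day 28 replicate 1 lay just under control 4, and the other three day 28 arrays lay above all controls (5.93-fold, adjusted p = 0.000367). At day 10 it was lower than control (log2 change -2.45), and day 28 exceeded day 10 by 5.02 (adjusted p = 6.01e-09). Against controls 4 and 5 alone the rise was 3.63-fold and not called (adjusted p = 0.154). Ch25h, which makes 25-hydroxycholesterol, read 6.88, 6.47, 6.61, 8.19 and 7.44 in the controls and 9.31, 9.79, 10.44 and 10.34 at day 28 (7.22-fold, adjusted p = 1.82e-05). It remained called against controls 4 and 5 alone (4.45-fold, adjusted p = 0.0142).

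Other stress and growth lists held up to 4 calls each. In the list of p53 targets and DNA damage genes, 4 of 29 were higher: Plk3 (2.70-fold, adjusted p = 1.71e-05) and Plk2 (2.01-fold, 0.00843), both polo-like kinases, Gadd45b (2.67-fold, 0.0383) and Btg2 (1.66-fold, 0.00587). Plk3, Btg2 and Gadd45b are also induced early by growth factors and cytokines. Against controls 4 and 5 alone Plk3 stayed called (adjusted p = 0.0138). Plk2, Gadd45b and Btg2 did not (0.562, 0.497 and 0.191). The call of Gadd45b changed in 9 of 19 alternative runs. Cdkn1a, the cell cycle inhibitor that p53 induces, was not called (log2 0.20, 95% interval -0.50 to 0.89, adjusted p = 0.84). Of 22 heat shock chaperones only Dnajb1 was called (1.84-fold, adjusted p = 0.0267), and Hspa1a differed by -0.33 (-1.43 to 0.77). Id3, a target of BMP signalling that blocks bHLH factors, read 8.73, 8.81, 8.76, 9.24 and 8.75 in the controls and 9.66, 10.19, 9.81 and 10.09 at day 28 (2.11-fold, adjusted p = 0.000142). Tgfbr1, a TGF-beta receptor, was 1.45-fold (adjusted p = 0.0244, 1 of 3 probes). Irf1, an interferon-regulated transcription factor, was 2.05-fold (adjusted p = 0.00384, 4 of 5 probes), the single call among 32 interferon-stimulated genes. Against controls 4 and 5 alone Id3 and Dnajb1 stayed called (adjusted p = 0.0499 and 0.00574). Tgfbr1 and Irf1 lost their calls there (0.336 and 0.357), and Dnajb1 lost its call without controls 4 and 5 (0.0656). None of 28 cell cycle genes, 16 unfolded protein response genes and 15 genes of the estrogen receptor list was called at day 28, at background rates of 1.33% higher and 0.757% lower. Esr1 itself differed by 0.18 (-0.11 to 0.48). It was dim, at 6.36 to 6.63 in the controls and 6.52 to 6.94 at day 28, where the offset understates changes. Nor was any gene called in the lists of skeletal muscle isoforms, amino acid response, complement, antioxidant, cholesterol synthesis or atrophy genes, or among smooth muscle, erythroid, epicardial or Schwann cell and neuron markers, whose medians lay between -0.20 and 0.22.

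The falls were smaller than the rises and depended on which controls were used. With 1 probe per gene, the 14 largest ran from 0.426-fold to 0.565-fold and included the thioesterase gene Acot1, the transcriptional coactivator gene Ppargc1b, the lipid droplet gene Plin4 and the giant sarcomere protein gene Ttn. None of the 14 stayed called against controls 4 and 5 alone, where their adjusted p ran from 0.106 to 0.920, and all 14 were called without controls 4 and 5. Counting every probe, 2 of the 5 Actb probes fell further, and they were picked out after their values were seen. One read 8.79, 8.72, 8.50, 8.69 and 9.50 in the controls and 6.80, 7.71, 7.31 and 8.14 at day 28 (0.392-fold, adjusted p = 0.0334, and 0.242 against controls 4 and 5 alone). The other read 8.79, 8.47, 8.36, 8.97 and 9.58 in the controls and 7.18, 7.64, 7.26 and 8.18 at day 28. For this probe every day 28 array lay below every control (0.416-fold, adjusted p = 0.0209), and it kept its call against controls 4 and 5 alone (-1.71, adjusted p = 0.0499). The 3 brighter Actb probes, among them the one that stood for the gene, were not called (log2 changes -0.36, 0.38 and 0.35), so the probes of this cytoskeletal actin disagree.

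Ttn, titin, read 14.90, 14.72, 14.69, 13.62 and 13.59 in controls 1 to 5 and 13.48, 13.34, 13.63 and 13.23 at day 28. Controls 4 and 5 lay with the day 28 arrays and more than 1 unit below controls 1 to 3. The change was -0.88 (SE 0.22, adjusted p = 0.0353), and it was -0.19 (adjusted p = 0.92) against controls 4 and 5 alone and -1.35 (adjusted p = 7.01e-06) without them. Plec, plectin, which links the cytoskeleton to the membrane, showed the same division, with 12.35, 12.34, 12.25, 11.36 and 11.17 in the controls and 11.23, 11.07, 11.00 and 10.98 at day 28 (-0.82, adjusted p = 0.0406, 2 of 10 probes). Rhbdl2, a rhomboid protease, read 10.25, 10.38, 10.43, 8.77 and 9.07 in the controls and 8.37, 8.65, 8.74 and 8.43 at day 28 (0.426-fold, adjusted p = 0.0459). Its controls 4 and 5 lay nearer to the day 28 arrays than to controls 1 to 3. Rbm24, a muscle splicing regulator, read 8.56, 8.42, 8.27, 7.54 and 7.61 in the controls and 6.87, 7.49, 7.22 and 7.15 at day 28 (0.537-fold, adjusted p = 0.0169).

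Other falls had more even controls. Acot1, which hydrolyses long-chain acyl-CoA and is a target of PPAR alpha, read 11.13, 10.72, 11.59, 11.02 and 10.76 in the controls and 10.57, 9.70, 9.91 and 9.73 at day 28. Controls 4 and 5 lay within the spread of the others, and the change was 0.478-fold (adjusted p = 0.00171). Against controls 4 and 5 alone it was 0.532-fold and not called (adjusted p = 0.106). Lrg1, a secreted leucine-rich glycoprotein, read 10.74, 10.65, 11.01, 10.64 and 10.50 in the controls and 9.90, 9.80, 9.75 and 9.76 at day 28 (0.535-fold, adjusted p = 0.00699). Slc27a1, a fatty acid transporter, read 9.61, 9.73, 10.01, 9.68 and 9.32 in the controls and 9.02, 8.69, 8.71 and 9.16 at day 28 (0.584-fold, adjusted p = 0.0078).

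**Figure D4:**
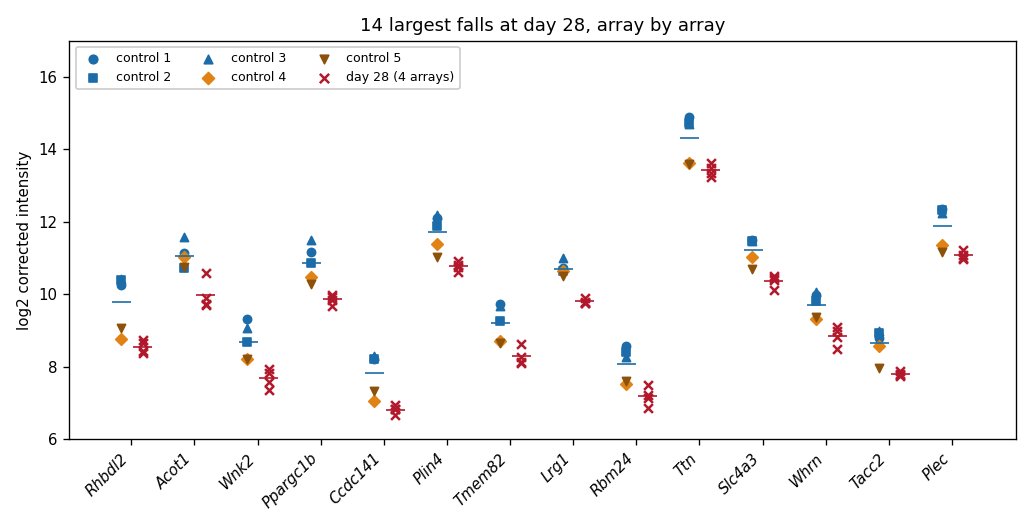
Log2 corrected intensity (vertical axis) of the 14 genes with the largest called falls; symbols and lines as in the plot of the largest rises. Controls 4 and 5 (orange and brown) lie between controls 1 to 3 and the day 28 arrays in genes such as Rhbdl2 and Ccdc141, and at least one of them lies among the day 28 arrays in Ttn and Plec.

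Metabolic lists had few calls and medians below 0, beside 0.757% lower of all genes. Of 32 genes of fatty acid uptake and oxidation, 3 were lower (Acot1, Slc27a1 and the triglyceride lipase Pnpla2, 0.701-fold, adjusted p = 0.0467) and none higher, with a median change of -0.21. Without controls 4 and 5 the count was 7 lower, and without controls 1 to 3 it was 0, with medians of -0.24 and -0.16. Of 18 regulators of mitochondrial biogenesis, 1 was lower, with a median of -0.31. That gene, Ppargc1b, read 11.16, 10.86, 11.50, 10.48 and 10.29 in the controls and 9.92, 9.68, 9.85 and 9.98 at day 28 (0.50-fold, adjusted p = 0.0355). Its relative Ppargc1a read 12.48, 11.28, 12.22, 10.32 and 10.35 in the controls and 10.51, 11.05, 10.99 and 10.04 at day 28. The controls spanned over 2 units, the groups overlapped, and the change of -0.68 was not called (95% interval -1.44 to 0.07, adjusted p = 0.37), although without controls 4 and 5 it was -1.35 (adjusted p = 0.00847). No member of the citric acid cycle list was called among 20, and 1 of 19 glycolysis genes was lower, Pfkl, a phosphofructokinase (0.684-fold, adjusted p = 0.0449). Calcium handling and ion channel genes had 1 call among 29, Kcnv2, a modifier subunit of potassium channels (0.660-fold, adjusted p = 0.0337), and a median of -0.24. Atp2a2, the sarcoplasmic calcium pump, lay near the top of the intensity scale in every array and differed by -0.00 (-0.21 to 0.21, adjusted p = 0.99).

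The classical markers of the failing ventricle were not called at day 28. Nppa, atrial natriuretic peptide, read 13.44, 15.24, 13.38, 13.50 and 13.84 in the controls and 13.25, 15.42, 13.66 and 13.70 at day 28 (difference 0.13, 95% interval -0.59 to 0.85, adjusted p = 0.91). Nppb, the B-type peptide, read 13.34, 14.25, 12.95, 13.07 and 13.18 in the controls and 13.39, 14.37, 13.49 and 13.48 at day 28 (0.33, -0.13 to 0.79, adjusted p = 0.51). In both genes control 2 and day 28 replicate 2 stood above their groups. Myh7, the slow myosin heavy chain, differed by -0.63 (-1.36 to 0.10, adjusted p = 0.40) and was called lower without controls 4 and 5 (-1.15, adjusted p = 0.0352). Myh6, the fast myosin heavy chain, differed by -0.27 (-0.57 to 0.03, adjusted p = 0.37), although its other probe was called lower. That probe read 14.13, 13.90, 14.21, 12.99 and 13.05 in the controls and 12.59, 12.49, 12.69 and 12.51 at day 28 (0.471-fold, adjusted p = 0.0233, and 0.811 against controls 4 and 5 alone). Acta1, skeletal actin, differed by -0.36 (-1.13 to 0.40) and Tnnt1, slow skeletal troponin T, by -0.10 (-0.62 to 0.42). The intervals allow changes of more than 1 log2 unit for Myh7 and Acta1, so the fit does not show that these genes were at control level.

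Direct comparison with day 10, which shares no arrays with day 28, gave 5791 called probes (30.0%), 2893 higher and 2898 lower at day 28 (15.0% each). Day 10 against control gave 6894 (35.8%), a comparison that shares the controls with that of day 28. Timp1, an inhibitor of matrix metalloproteinases, read 7.75, 7.67, 7.42, 8.01 and 7.74 in the controls, 14.38, 14.47 and 13.99 at day 10 and 8.06, 8.23, 8.55 and 8.18 at day 28. The day 28 arrays lay far below day 10 (difference -6.03, adjusted p = 3.75e-09). Yet all 4 lay above every control by a small margin, an order found for 3.21% of all probes. The change from control was not called (0.54, -0.37 to 1.44, adjusted p = 0.61). That interval rests on a spread shared by all 5 groups, and Timp1 ran from 10.44 to 13.90 at day 3. Its SD was 0.21 in the controls and 0.21 at day 28, so the interval does not describe these 2 groups alone. Lgals3, galectin 3, differed from day 10 by -4.24 (adjusted p = 1.95e-09) and from control by 0.36 (-0.25 to 0.96). Tnc, tenascin C, differed from day 10 by -5.05 and from control by 0.03 (-0.82 to 0.89), and Lox, which crosslinks collagen, by -3.83 and 0.53 (-0.17 to 1.24). For Tnc as well, the SE of 0.41 against control exceeded the SD of 0.26 in the controls and at day 28. Ces1d, a carboxylesterase, read 13.05, 12.48, 13.12, 13.02 and 12.89 in the controls, 8.40, 8.40 and 9.24 at day 10 and 12.88, 12.45, 12.81 and 12.78 at day 28. Its day 28 values overlapped the controls (-0.18, -0.67 to 0.30) and exceeded day 10 by 4.05 (adjusted p = 1.56e-10).

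By list, 29 of 32 fatty acid genes and 19 of 20 citric acid cycle genes were higher at day 28 than at day 10, against 16.2% of all genes. In the other direction, 21 of 24 macrophage markers, 22 of 28 cell cycle genes and 15 of 24 collagen genes were lower, against 15.4% of all genes. Of 24 immediate early genes, 7 were higher and 2 lower at day 28 than at day 10. Fosb was 2.07 above day 10 (adjusted p = 0.000139), Klf4 1.62 and Ccn1 1.31 (adjusted p = 0.00087), whereas for Fos (-0.23, adjusted p = 0.77), Egr2 (0.34, 0.66) and Junb (0.43, 0.46) no difference was called. Fos read 8.43, 8.17, 8.12 and 7.80 at day 2 and 12.77, 12.50 and 13.13 at day 3. All 3 day 10 arrays and all 4 day 28 arrays read between 12.23 and 13.08, whereas Timp1 and Ces1d were nearer to control than to day 10 at day 28. The days were sampled from different animals, so whether Fos stayed high between them was not measured. Control 4, taken at baseline, read 11.45. Of the cytokine list, 13 of 33 were lower and 2 higher at day 28 than at day 10. The difference from day 10 was -2.60 for Il1b (adjusted p = 0.00039), -2.04 for Cd14 of the macrophage list (adjusted p = 0.000277) and 1.25 for Cxcl1, which was not called (adjusted p = 0.12).

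**Figure D5:**
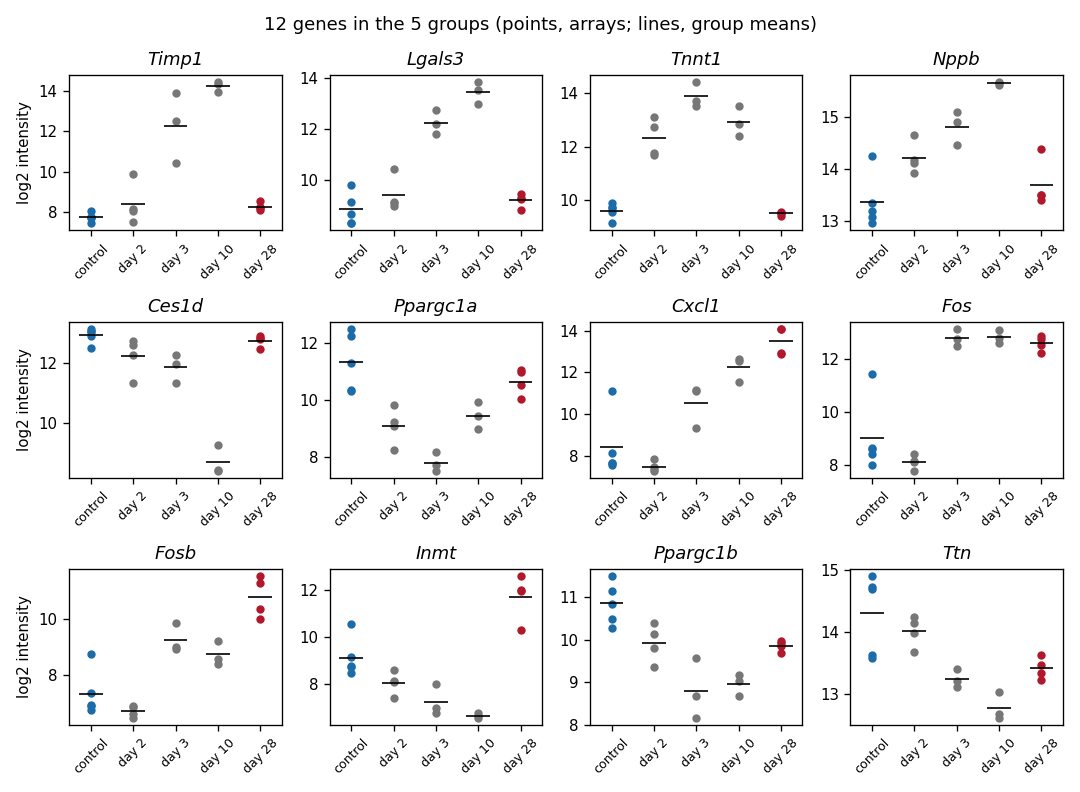
Log2 corrected intensity of 12 genes in the 5 groups (points, single arrays; black lines, group means; blue, control; grey, day 2, 3 and 10; red, day 28); vertical axes differ between panels and do not start at 0. Timp1, Lgals3, Tnnt1 and Ces1d are near control at day 28. Fos, Fosb and Cxcl1 lie above every control at day 28, and Fosb also lies above its day 10 values. Inmt has its lowest mean at day 10 and its highest at day 28, and the controls of Ttn and Ppargc1a split.

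Day 28 arrays also differed among themselves. Replicate 1 was the lowest of the 4 for 134 of the 214 probes called higher, and replicate 3 was the highest for 93 and replicate 4 for 65. Without replicate 1 the comparison gave 287 called probes, and without replicates 2, 3 and 4 it gave 153, 105 and 137. Without controls 1, 2 and 3 in turn it gave 130, 182 and 139, and without controls 4 and 5 in turn 679 and 772. All 347 called probes kept their direction under every alternative run, of which the setting with 1 probe per gene tested 270. These runs share most arrays with the fit that chose the probes, so a kept direction is not independent support. Of the 347, 36 stayed called without controls 1 to 3, 104 without day 28 replicate 3 and 336 without controls 4 and 5. Of the 37 probes called higher against controls 4 and 5 alone, 10 genes were on the immediate early list and 5 on the cytokine list, and the others included Errfi1, Ch25h, Ccn2, Thbs1 and Dnajb1.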

How the data were processed

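Total RNA (RIN above 9.0) from left ventricle was labelled with biotin by cRNA amplification and hybridised to Illumina mouse bead arrays, per the labels' protocols. The authors deposited intensity values for 25697 probes on 19 arrays. The sorted values of the arrays were identical (116 to 57814, median 191), so the deposited values had been quantile normalised. The software used for this is not given in the sources used here. A second table of the series holds 38 columns under laboratory codes that no label ties to a sample, and it was not used.

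Intensities were corrected with normexp (offset 50) and taken to log2 in limma 3.58.1 (R 4.3.3). Folds are on this corrected scale, where the offset understates changes of dim probes. Probes at or below the 25th percentile of mean intensity (163) were left out, which left 19272 probes, 18095 of them with a gene symbol in the platform annotation and 12938 genes. A mean per group was fitted over all 19 arrays with empirical Bayes variances (14 residual and 9.66 prior degrees of freedom), and p-values were adjusted by Benjamini-Hochberg over all 19272 probes. The number of arrays limits the precision. Nothing in the labels names separate litters or days, so p-values measure the spread between these samples.

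Named genes were the 14 largest called rises and the 14 largest called falls, with predicted and clone names passed over, 20 genes fixed by name and up to 4 called members of each of 43 gene lists. Other genes named in the text are members of those lists. Each gene was represented by its probe of highest mean. The members and lists were chosen with earlier results of these data known. The code was tested on simulated data. Promoter windows and motif searches used RefSeq sequences with Python 3, and 15 of 16 called immediate early genes and 9 of 15 called cytokine genes had one.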

Additional observations from a re-analysis of the deposited data

Results flagged for a closer look

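Among the 77 named genes with a tested probe, 154 gene and group pairs were searched for an array that stood apart from its group by Dixon's criterion, which chance meets in about 1 in 20 groups. It was met by 15. Of these, 10 were high values of control 4, namely Cxcl1 at 11.14 (next control 8.17), Egr2 at 9.96, Fos at 11.45 (next control 8.67), Junb at 10.65, Egr1 at 13.59, Il1b at 9.40, Nfkbiz at 9.41, Ccn1 at 10.27, Tnc at 7.09 and Id3 at 9.24. All but Tnc were called higher at day 28. No value of control 5 met the criterion.

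Control 2 stood apart for Nppa at 15.24 (next control 13.84). Within day 28, replicate 2 was high for Nppb at 14.37 (next 13.49) and for Myh7 at 8.56 (next 7.54), replicate 3 was high for Irf1 at 12.29 (next 11.52), and replicate 1 was low for Dcn at 14.87 (next 15.14).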

How the results depend on the processing

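Besides the controls used, which gave 1874 called probes (926 higher, 948 lower) without controls 4 and 5 and 39 (37 higher, 2 lower) without controls 1 to 3, the counts at day 28 moved with array weights (1583; 799 higher, 784 lower), with the replicate block (816; 399 higher, 417 lower), with an offset of 16 (222; 72 lower) and with a fit on the 2 groups alone (84 lower). Leaving out controls 4 and 5, leaving out controls 1 to 3 and the offset of 16 were chosen after seeing the data. Leaving out 1 array at a time gave 105 to 772 called probes (83 to 382 higher, 22 to 390 lower). Whether the replicate numbers pair the samples cannot be decided from 4 correlations. Same-numbered day 28 and control arrays correlated at -0.04 to 0.09, and 2 of 4 correlated best with their own number. Against day 10 no alternative moved the count by over 1.5 times. Called immediate early genes numbered 10 and cytokine genes 5 without controls 1 to 3, and 11 to 16 for both lists with 1 array left out. With no background correction the distances of controls 1 to 5 from the day 28 mean were 0.299, 0.279, 0.293, 0.203 and 0.212. Of 59 called named genes, 39 were lost without controls 1 to 3, 18 at offset 16, 13 with the 2 groups alone and 1 under the replicate block. Leaving out 1 array lost 24 for control 1 and 24 for each of day 28 replicates 2, 3 and 4. It lost 22 for control 3, 19 for control 2, 12 for day 28 replicate 1 and 1 each for controls 4 and 5. None reversed. The cause of these shifts was not tested.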
